A study of Mus musculus with 9 samples.

Results

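The genes described here are 56 genes of DNA replication and DNA repair, among 18193 genes measured. They were taken as a list of symbols of the replication fork and of mismatch, excision and double-strand break repair. The list was chosen with earlier results of these data known, so its brightness and its shares of calls are descriptions only. All 56 had at least 1 probe set with a single gene symbol. They were arranged in 11 pathways, with 27 genes of the replication fork and 29 of repair and its checkpoint kinases. Messenger RNA bound to polysomes was measured in mouse oocytes on 9 Affymetrix whole-genome arrays, 3 for each stage of meiotic maturation. The mice had received PMSG, a gonadotropin that stimulates follicle growth, and 48 h later hCG, which triggers maturation. Germinal vesicle (GV) oocytes, arrested in prophase, were collected 0 h after hCG, metaphase I (MI) oocytes after 4 h, and metaphase II (MII) eggs, arrested again, after 14 h. The labels give no strain, age or number of animals, and all 3 stages share the gonadotropin priming. The description field of the MI samples reads pGVB, which it does not explain; their stage label is metaphase I. The submitters call the arrays biological replicates and the sample sets independent, and they do not say that animals differed. The p-values therefore measure only how far these samples spread, which may be technical in part.

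At a replication fork the MCM2-7 ring, loaded on origins and activated with Cdc45 and the GINS complex, unwinds the duplex, RPA coats the single strands, and the PCNA clamp, loaded by RFC, tethers the polymerases. The lagging strand is made in pieces that primase starts, the flap nuclease Fen1 trims and DNA ligase I joins. Mismatch, base excision, nucleotide excision, end-joining and recombination pathways repair different kinds of damage, and the kinases Atm, Atr, Chek1 and Chek2 signal it. A maturing oocyte does not replicate its DNA between the meiotic divisions. Its stored mRNAs are translated under changing control while transcription is largely silent, and the proteins made serve the first S phase and the repair of both parental genomes after fertilisation.

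Many replication genes are known targets of E2F transcription factors, and the promoters were read for the letters of E2F-type sites. RefSeq promoter windows on build GRCm38.p6, 250 bases before to 50 bases after a gene's start, were at hand for 46 of the 56 genes (52 windows). The motifs searched were TTTCCCGC, TTTGGCGC, TTTCGCGC and TTTGCCGC on both strands, and a window with several or overlapping matches counted once. At least 1 of them stood in 13 of the 52 windows (25%), against 581 of 18109 windows (3.208%) of genes on the arrays and 744 of 32851 windows in all (2.265%). Among genes that passed a comparison described below, 1 of 6 windows of the genes that rose and 4 of 18 windows of those that fell held a motif, beside 8 of 28 windows of the genes not called. A match is a description of letters, not a bound site. The stretches of 4 MCM genes are shown because subunits of this 1 ring carried the same kind of motif and yet differed on polysomes, as given below. Of these 4, Mcm3 and Mcm5 fell and Mcm6 did not pass. Mcm7 rose, with a call kept in only 1 of 9 fits without an array. The ring subunits Mcm2 and Mcm4 are not among the genes with a match. Each is written 5′ to 3′ on the gene's strand, with motif letters in capitals.
Mcm3, chr1:20820265-20820294 (- strand): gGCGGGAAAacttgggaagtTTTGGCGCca
Mcm5, chr8:75109319-75109418 (+ strand): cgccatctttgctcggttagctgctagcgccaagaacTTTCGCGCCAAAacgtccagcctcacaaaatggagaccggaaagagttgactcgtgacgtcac
Mcm6, chr1:128359756-128359855 (- strand): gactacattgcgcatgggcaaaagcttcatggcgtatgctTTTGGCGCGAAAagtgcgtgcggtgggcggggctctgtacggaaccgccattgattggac
Mcm7, chr5:138171989-138172088 (- strand): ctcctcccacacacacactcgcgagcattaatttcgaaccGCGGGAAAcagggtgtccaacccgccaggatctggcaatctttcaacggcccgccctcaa
The Mcm3 stretch lies 19 to 48 bases after the annotated start, while the other 3 stretches, of 100 bases each, lie before it. Further matches in the windows of Mcm6 and Mcm7 lie outside the stretches. In Mcm5 and Mcm6 a pair of motifs on opposite strands overlap in 1 run of 12 letters, where the capitals join.

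Values are probe set intensities on a linear scale, and the brightest probe set stood for a gene. The array medians lay between 12.39 and 13.22, and between 53.1% and 54.8% of probe sets lay below 16, a range in which signal and background are hard to separate. The listed genes were brighter, with a median mean intensity of 510.2 over the set against 50.7 over all genes, and 55 of 56 reached the latter as a mean of at least 1 stage. Chek2, a checkpoint kinase, was the exception, at 1.77 to 12.7 on the 9 arrays. Pearson correlations of log2(intensity + 16) across probe sets, which are not independent, were 0.875 to 0.934 between GV and MI arrays, 0.804 to 0.873 between MI and MII arrays and 0.779 to 0.850 between GV and MII arrays, where arrays of 1 stage gave 0.880 to 0.934. All 13 oocyte markers had a mean at or above 50.7, though Figla, an oocyte transcription factor, averaged 20.1 at MII. Their summed intensity was 55946 to 59778 at GV, 48304 to 52582 at MI and 29956 to 38034 at MII. Single markers went both ways, since in MII against GV 6 of the 13 fell and 3 rose. Those that rose were Oosp1 (mean 8663 in MII and 4035 in GV), Dazl (1913 in MII and 857 in GV) and Mos (2520.0 in MII and 929 in GV). The summed intensity of the 56 genes was 46548 to 51865 at GV, 45068 to 53246 at MI and 36343 to 45768 at MII. Of 18 granulosa, cumulus and theca markers 13 lay below 50.7, and their summed intensity was 1103 to 1276 at GV, 1057 to 1499 at MI and 717 to 1091 at MII. Of 11 blood, immune and endothelial markers 9 lay below 50.7, and their sum was 361 to 970 on all arrays. In MII against GV the granulosa gap junction gene Gja1 fell (mean 6.47 in MII and 199.9 in GV; log2 change -3.12, adjusted p = 0.0329), as did the endothelial receptor gene Tek (21.1 in MII and 369 in GV; -3.44, adjusted p = 0.00617), and Alas2, an erythroid gene, rose within the range of background (0.95, adjusted p = 0.0332). No other marker of these lists passed this comparison. Nr5a2, Hsd3b1 and Pecam1 were higher at MII without overlap but did not pass (2.17, 0.86 and 1.83). Other bright probe sets of Nr5a2 had -1.761 and -1.486 in MII against GV. The cumulus marker Tnfaip6 averaged 3.77 at GV, 66.4 at MI and 9.65 at MII, and fell in MII against MI (-1.76, adjusted p = 0.018). The part of any of these markers in the results below was not tested. Fewer cells and less RNA per cell cannot be told apart in such bulk samples, nor can less mRNA and fewer ribosomes on it.

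Most of the replication and repair mRNAs that passed a test fell towards MII, and none passed between MI and GV. In MII eggs against GV oocytes 7 of the 56 genes rose and 15 fell by limma's moderated test, with p-values adjusted by Benjamini-Hochberg over 18193 genes and a threshold of 0.05, where 5.52% of all genes rose and 8.94% fell (14.5% in either direction). In shares, 12.5% of the set rose and 26.8% fell. Bright genes moved more often than all genes: of the 9097 genes with a mean at or above the median 10.3% rose and 17.5% fell in this comparison, and of the 5539 genes with a mean at or above 232.7, the lower quartile of the set, 13.5% rose and 23.8% fell. The shares of the set lay near these. In MII against MI 2 of 56 rose and 14 fell, beside 2.52% and 6.83% of all genes (9.36% in either direction), 4.61% and 13.3% of the 9097 genes and 5.71% and 18.5% of the 5539 genes. In MI against GV none of the 56 passed in either direction, as none of all genes did (0%). The F test over the 3 stages called 17 of 56 genes, where it called 11.7% of all genes and 2051 of the 9097 brighter ones. In all 23 genes passed MII against MI or MII against GV, 7 with a rise and 16 with a fall, and 15 of the 23 passed both. The median log2 change, on the log2(intensity + 16) scale that understates changes of dim genes, was -0.77 over the set in MII against MI, beside -0.02 over all genes and -0.17 over the 9097 brighter ones, and -0.74 in MII against GV, beside -0.03 and -0.20.

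**Figure D1:**
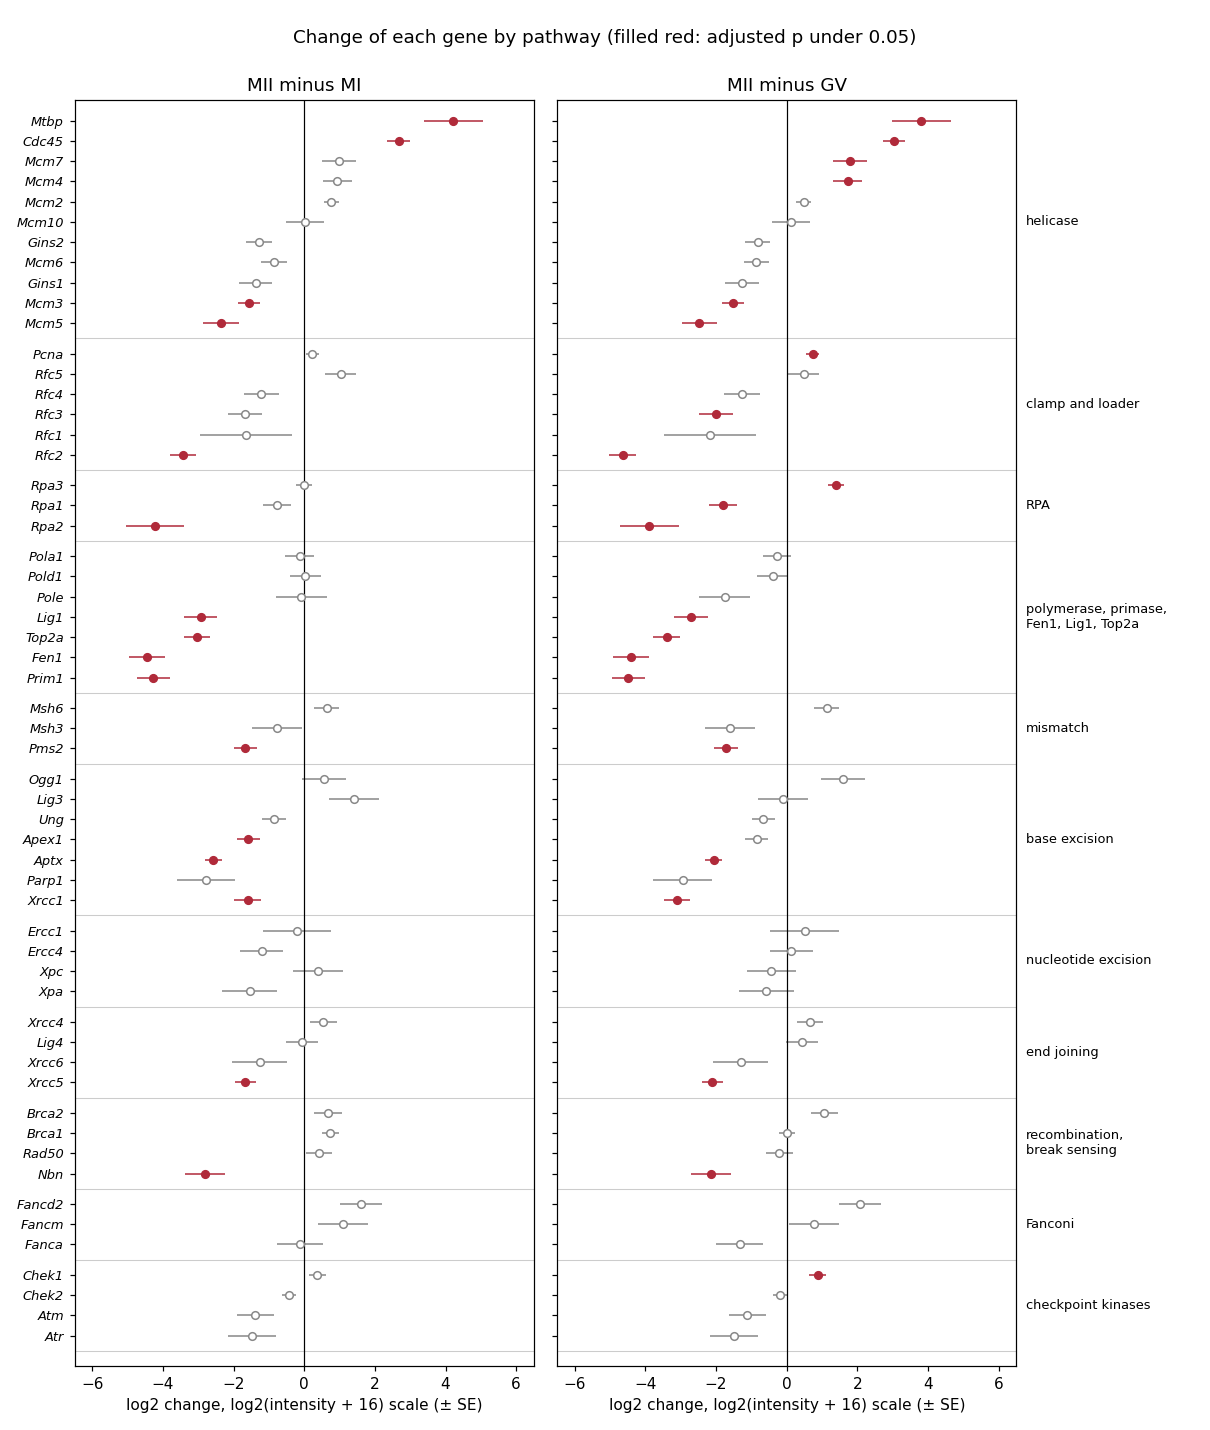
Log2 change (x axis, log2(intensity + 16) scale, bars ± SE of the fit) of each of the 56 genes, grouped by pathway down the page, in MII minus MI and MII minus GV; filled red points passed at an adjusted p under 0.05. In the group of polymerases, primase, Fen1, Lig1 and Top2a the 4 called genes of 7 lie between -4.48 and -2.71 in MII minus GV, while the helicase group spans -2.47 to 3.81.

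The mRNAs of subunits and activators of the replicative helicase moved in opposite directions: in MII against GV 4 of 11 genes rose, 2 fell and 5 did not pass. Among the 9097 genes at or above the median 10.3% rose and 17.5% fell in MII against GV, and 4.61% and 13.3% in MII against MI. The counts by pathway here and below are small and stand beside these shares. A single call in a small pathway is not read as a trait of that pathway. Cdc45, which joins MCM2-7 and GINS in the active helicase, had intensities of 98.9, 112 and 54.4 on the GV arrays, 123, 139 and 86.7 on the MI arrays and 641, 788 and 1070.1 on the MII arrays. Every MII array lay above every GV and MI array (MII against GV log2 change 3.04, SE 0.32, adjusted p = 0.00135; MII against MI log2 change 2.67, SE 0.32, adjusted p = 0.00305). Mtbp, which helps origins to fire, had 206, 158 and 9.63 on the GV arrays, 124, 37.3 and 40.8 on the MI arrays and 1944, 801 and 1691 on the MII arrays. Its MII arrays also lay above all others, with MI and GV overlapping (MII against GV log2 change 3.81, SE 0.83, adjusted p = 0.0194; MII against MI log2 change 4.22, SE 0.83, adjusted p = 0.0195). These 2 activation factors started low and gave the steepest rises of the 56 genes.

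Within the MCM2-7 ring, Mcm4 and Mcm7 rose and Mcm3 and Mcm5 fell. Mcm4 measured 846, 1387 and 578 on the GV arrays, 1439, 1596 and 1555 on the MI arrays and 2673, 4971 and 1918 on the MII arrays. Each stage was clear of the one before it (MII against GV log2 change 1.72, SE 0.42, adjusted p = 0.0287). Mcm7 measured 512, 632 and 315 on the GV arrays, 878, 909 and 721 on the MI arrays and 877, 3429 and 1502 on the MII arrays. Its MII arrays lay above the GV arrays but not all above the MI arrays (MII against GV log2 change 1.79, SE 0.48, adjusted p = 0.0442). Neither passed in MII against MI (log2 changes 0.94 and 0.98). Mcm5 measured 2704, 2236 and 2309 on the GV arrays, 2762, 2305 and 1758 on the MI arrays and 616, 720.3 and 163 on the MII arrays. It overlapped at GV and MI and was lower on every MII array (MII against GV log2 change -2.47, SE 0.51, adjusted p = 0.0153; MII against MI log2 change -2.37, SE 0.51, adjusted p = 0.0256). Mcm3 measured 568, 849 and 481 on the GV arrays, 698, 661 and 541 on the MI arrays and 237, 136 and 254 on the MII arrays. It too was lower on every MII array (MII against GV log2 change -1.53, SE 0.31, adjusted p = 0.0143; MII against MI log2 change -1.56, SE 0.31, adjusted p = 0.0196). Mcm2, the brightest helicase gene, measured 1900.2, 1833 and 1750.0 on the GV arrays, 1661, 1290.0 and 1553 on the MI arrays and 2663, 2055 and 3012 on the MII arrays. It was highest at MII without overlap, but missed the threshold (MII against MI 0.76, adjusted p = 0.0694). The sixth subunit, Mcm6, had a log2 change of -0.87 in MII against GV and did not pass, with -2.15 and -0.78 at its other bright probe sets. Among the remaining genes, Gins1 and Gins2, of the GINS complex, had -1.27 and -0.82, and Mcm10, an initiation factor, had 0.13; none of the 3 passed.

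Several helicase calls were lost when an array was left out. The call of Mcm7 against GV was kept only without MII 1 (adjusted p up to 0.133 without another array), and that of Mcm4 was lost without GV 1, GV 3, MII 1 or MII 2 (up to 0.0864). Mtbp lost its call against GV without MII 1 or MII 3 (up to 0.0664) and against MI without MI 2, MI 3, MII 1 or MII 3 (up to 0.0699). Mcm3 and Mcm5 lost theirs against MI without MI 1 or MI 2 (up to 0.0675 and 0.082). With a gene's probe sets averaged, the calls of Mcm3, Mcm5 and Mcm7 and that of Cdc45 against MI were lost, while Cdc45 passed in both comparisons without any 1 array. With a pseudocount of 1 the calls of Mcm3, Mcm4 and Mcm7 were lost.

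**Figure D2:**
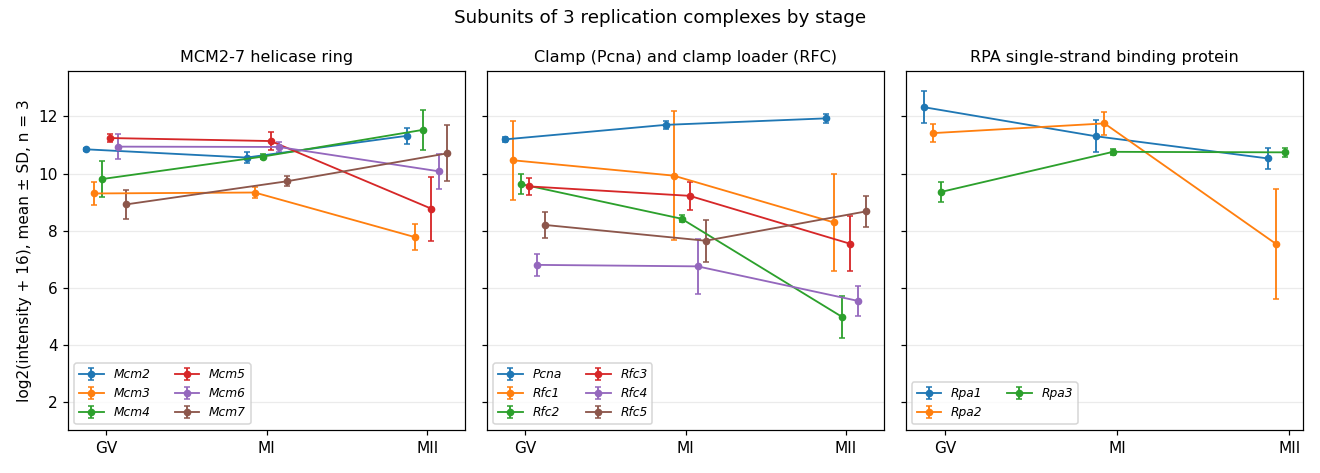
Mean log2(intensity + 16) ± SD of 3 arrays (y axis) at GV, MI and MII (x axis) for the subunits of the MCM2-7 ring, of the PCNA clamp with its loader RFC, and of RPA. Lines of 1 complex cross: Mcm4 and Mcm7 lie higher at MII than at GV while Mcm3 and Mcm5 lie lower, and Rpa3 lies higher while Rpa1 and Rpa2 lie lower.

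The mRNA of the sliding clamp rose moderately while those of 2 subunits of its loader fell. Pcna, the clamp that holds polymerases on DNA, was among the brightest genes of the set, with 2171, 2455 and 2374 on the GV arrays, 3313, 3028 and 3652 on the MI arrays and 3526, 4326 and 3866 on the MII arrays. Its GV arrays lay below all others, and MI and MII overlapped (MII against GV log2 change 0.74, SE 0.19, adjusted p = 0.036). Rfc2, a loader subunit, measured 579, 891 and 901 on the GV arrays, 329, 297 and 353 on the MI arrays and 41.1, 6.95 and 7.92 on the MII arrays. Its 3 stages did not overlap (MII against GV log2 change -4.65, SE 0.38, adjusted p = 0.000818; MII against MI log2 change -3.44, SE 0.38, adjusted p = 0.00241). At MII 2 of its 3 arrays lay below 16, in the range of background. Rfc3 measured 908, 608 and 711 on the GV arrays, 739.9, 682 and 385 on the MI arrays and 158, 361 and 82.2 on the MII arrays. It was lowest on every MII array (MII against GV log2 change -2.01, SE 0.49, adjusted p = 0.03; MII against MI -1.68, adjusted p = 0.0761). Rfc1, the large subunit, ranged from 85.2 to 5441 with no order by stage, Rfc4 had a log2 change of -1.26 and Rfc5 one of 0.48 in MII against GV, and none of these 3 passed. The call of Rfc2 held without any 1 array. That of Pcna was kept only without MI 3 (adjusted p up to 0.102 without another array), and that of Rfc3 was lost without GV 1, GV 2, GV 3, MII 1 or MII 3 (up to 0.0908). With a pseudocount of 1 the calls of Pcna and Rfc3 were lost, as were that of Pcna without the lowest 40% of genes and that of Rfc3 with its probe sets averaged.

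The mRNAs of the 3 subunits of RPA, which coats single-stranded DNA in replication and repair alike, did not move together. All 3 passed in MII against GV, 1 with a rise and 2 with a fall. Rpa3, the smallest subunit, measured 781, 683 and 489 on the GV arrays, 1799, 1578 and 1786 on the MI arrays and 1668, 1533 and 1909.6 on the MII arrays. It was higher at MI and at MII than at GV without overlap, and MI and MII overlapped (MII against GV log2 change 1.39, SE 0.23, adjusted p = 0.00661; MII against MI -0.02; MI against GV 1.40, adjusted p = 0.195). Rpa2 measured 3166, 2107 and 2998 on the GV arrays, 3824, 4292 and 2482 on the MI arrays and 162, 695 and 33.5 on the MII arrays. The MII arrays were lowest and widely spread (MII against GV log2 change -3.89, SE 0.83, adjusted p = 0.0177; MII against MI log2 change -4.23, SE 0.83, adjusted p = 0.0191). Rpa1, the large DNA-binding subunit and the brightest of the 3, measured 4620.5, 3675 and 7861 on the GV arrays, 3947, 1877 and 2145 on the MI arrays and 1199, 1976 and 1317 on the MII arrays. Its MII arrays lay below the GV arrays, and the MI arrays overlapped both (MII against GV log2 change -1.79, SE 0.40, adjusted p = 0.0204). Of the 3, only Rpa3 kept its call without any 1 array, and it lost that call with a pseudocount of 1, as Rpa1 did. Rpa1 lost its call without GV 3, MII 1 or MII 3 (adjusted p up to 0.068), and Rpa2 lost its call against GV without GV 1, GV 3 or MII 1 (up to 0.0572) and against MI without MI 1, MI 2 or MII 1 (up to 0.0679).

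The mRNAs of Prim1, Fen1 and Lig1, enzymes that start, trim and join the lagging strand, fell steeply at the probe sets used. In the group of polymerases, primase, flap nuclease, ligase and topoisomerase 4 of 7 genes fell in both MII comparisons, none rose and 3 did not pass, and the median log2 change in MII against MI was -2.93. Prim1, the catalytic primase subunit that makes the RNA primers, measured 881, 337 and 1059 on the GV arrays, 654, 713 and 432 on the MI arrays and 10.1, 9.22 and 30.4 on the MII arrays. The MII values lay far below all others, on 2 arrays in the range of background (MII against GV log2 change -4.48, SE 0.46, adjusted p = 0.00132; MII against MI log2 change -4.27, SE 0.46, adjusted p = 0.00237). At another bright probe set of Prim1 the means were 713.5 at GV, 259 at MI and 240 at MII. There the log2 change in MII against MI was only -0.14, so the size and timing of the fall depend on the probe set. Fen1, which removes the primer flaps, measured 3909, 1520.2 and 1162 on the GV arrays, 2711, 2412 and 1181 on the MI arrays and 105, 73.1 and 53.4 on the MII arrays. The stages GV and MI overlapped and MII lay below both (MII against GV log2 change -4.40, SE 0.51, adjusted p = 0.00189; MII against MI log2 change -4.46, SE 0.51, adjusted p = 0.00275). Lig1, which seals the joined pieces, measured 630.1, 633 and 661 on the GV arrays, 489.5, 1080.0 and 789 on the MI arrays and 101, 158 and 33.3 on the MII arrays. Every MII array lay below the rest (MII against GV log2 change -2.71, SE 0.47, adjusted p = 0.00811; MII against MI log2 change -2.93, SE 0.47, adjusted p = 0.00931). Top2a, which untangles and condenses chromosomes, measured 213, 411 and 300.2 on the GV arrays, 223, 204 and 262 on the MI arrays and 32.0, 3.29 and 12.3 on the MII arrays. It too was lowest on every MII array (MII against GV log2 change -3.40, SE 0.37, adjusted p = 0.00154; MII against MI log2 change -3.04, SE 0.37, adjusted p = 0.00334). These 8 calls were kept without any 1 array.

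None of the catalytic polymerase subunits of this group passed. Pola1, of the polymerase that extends the primers, lay between 265 and 784 on all arrays, and its log2 change in MII against GV was -0.27 (SE 0.40). Pold1 and Pole, of the polymerases of the lagging and the leading strand, were dim, at 53.6 to 199.6 and 22.7 to 649.6, with log2 changes of -0.40 and -1.76. Their SEs were 0.44 and 0.72, and the MII arrays overlapped both GV and MI for all 3. Pole was lower on every MI array than on any GV array, without passing (MI against GV log2 change -1.68, adjusted p = 0.699).

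**Figure D3:**
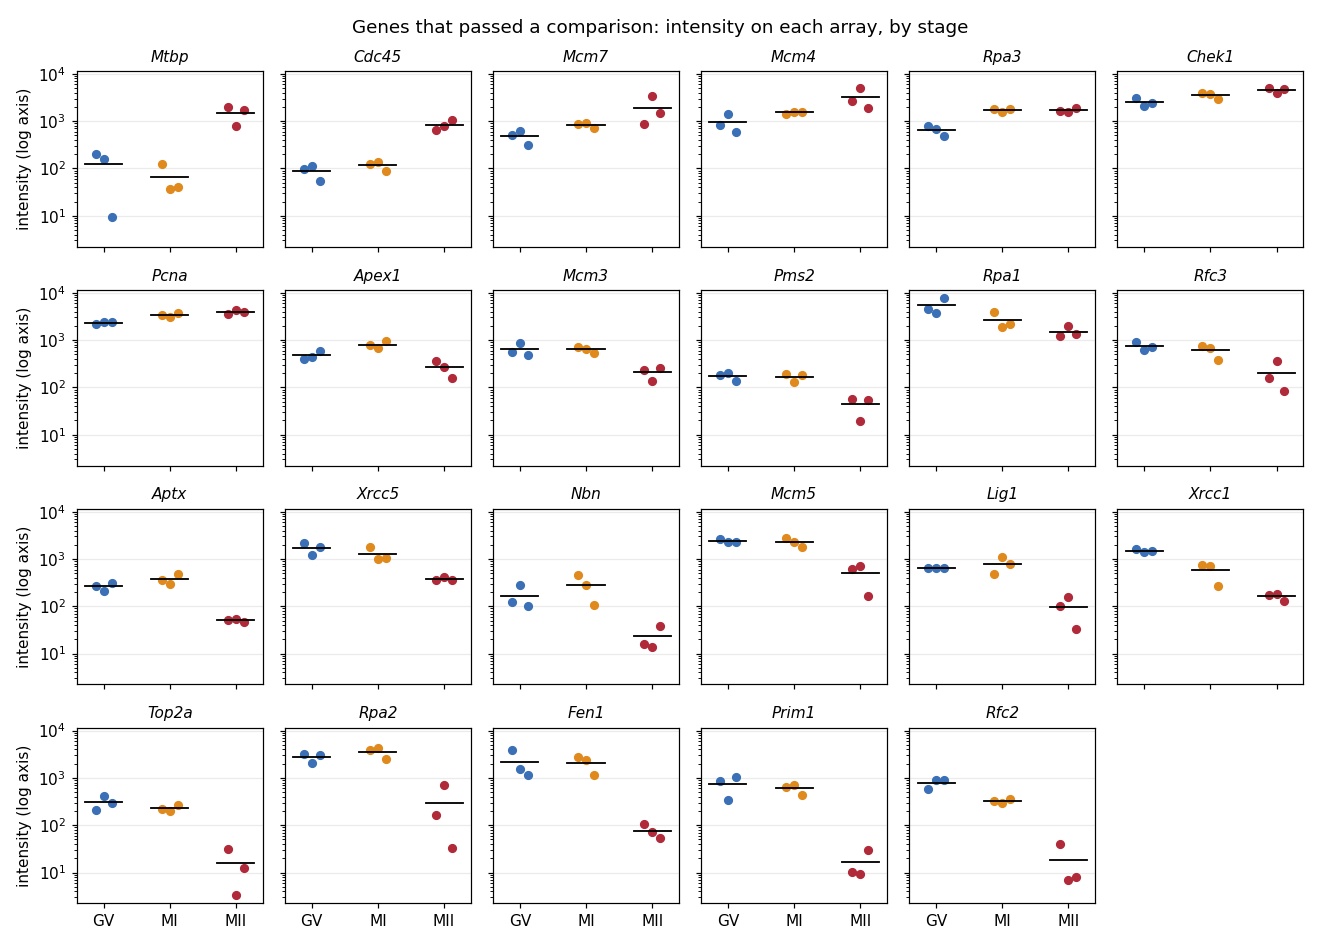
Intensity (y axis, log scale) on each array at GV, MI and MII (x axis) for the 23 genes that passed MII minus MI or MII minus GV, ordered by their change in MII minus GV; points are arrays and lines are means of 3. From Mtbp to Pcna the MII arrays lie higher than the GV arrays, and from Apex1 to Rfc2 they lie lower.

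Base excision repair, which removes small base lesions and seals single-strand breaks, had falling mRNAs for its scaffold, an end processor and an endonuclease. The 2 glycosylases of the set, Ung and Ogg1, did not pass, and glycosylases outside the set are given further below. Of 7 genes 3 fell in MII against MI, 2 of them also against GV, and none rose. Xrcc1, the scaffold of single-strand break repair, measured 1661, 1395 and 1480.2 on the GV arrays, 729.7, 718 and 269 on the MI arrays and 171, 184 and 133 on the MII arrays. The 3 stages did not overlap and each lay below the one before it (MII against GV log2 change -3.10, SE 0.38, adjusted p = 0.00219; MII against MI log2 change -1.60, SE 0.38, adjusted p = 0.0367). Aptx, which clears failed ligation products from DNA ends, measured 275, 209 and 309 on the GV arrays, 359, 303 and 492 on the MI arrays and 51.1, 52.8 and 46.6 on the MII arrays. Its MII arrays were close to each other and well below the rest (MII against GV log2 change -2.07, SE 0.24, adjusted p = 0.00197; MII against MI log2 change -2.57, SE 0.24, adjusted p = 0.0016). Apex1, the endonuclease that cuts at abasic sites, measured 390.5, 432 and 595 on the GV arrays, 774, 672 and 951 on the MI arrays and 367, 268 and 160.4 on the MII arrays. MI was highest and MII lowest, with no overlap. It passed in MII against MI (log2 change -1.59, SE 0.33, adjusted p = 0.0217) and not in MII against GV (-0.85, adjusted p = 0.142).

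Ung, the glycosylase that removes uracil and the brightest of this group, measured 2592, 2613 and 2688 on the GV arrays, 2089, 2709 and 4829 on the MI arrays and 1574, 2207 and 1315 on the MII arrays. Every MII array lay below GV, with no call (MII against GV -0.66, adjusted p = 0.279). Ogg1, the glycosylase for oxidised guanine, had a log2 change of 1.58 in MII against GV, and Lig3, the ligase that partners Xrcc1, one of -0.11. Other bright probe sets of Lig3 had -1.055 and -1.367. Parp1, the sensor of strand breaks, measured 434, 694 and 517 on the GV arrays, 468, 620.2 and 374 on the MI arrays and 321, 17.4 and 17 on the MII arrays. It was lower on every MII array than on any other, and at 17.4 and 17 on 2 of them, without passing (MII against GV log2 change -2.95, SE 0.83, adjusted p = 0.0506). The calls of Aptx, and that of Xrcc1 against GV, were kept without any 1 array. Xrcc1 kept its call against MI only without MI 3 (adjusted p up to 0.118 without another array) and lost it with a pseudocount of 1, and Apex1 lost its call without MI 1, MI 2, MI 3, MII 2 or MII 3 (up to 0.0631), with a pseudocount of 1 and with only the arrays of MI and MII in the fit.

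Mismatch repair, which corrects copying errors, had 1 call among 3 genes. Pms2, of the endonuclease that follows mismatch recognition, measured 187, 198 and 135 on the GV arrays, 192, 127 and 180.1 on the MI arrays and 56.2, 19.7 and 54.9 on the MII arrays. The MII arrays were the lowest (MII against GV log2 change -1.72, SE 0.33, adjusted p = 0.0118; MII against MI log2 change -1.67, SE 0.33, adjusted p = 0.0198). Msh6, a recognition subunit and the brightest of the 3, measured 989, 1097 and 945 on the GV arrays, 2471, 857 and 1368 on the MI arrays and 2186, 2359.7 and 2162 on the MII arrays. Its MII arrays lay above the GV arrays without a call (MII against GV log2 change 1.14, SE 0.35, adjusted p = 0.072). Msh3, the alternative recognition subunit, measured 1777, 355 and 351 on the GV arrays, 454, 389 and 203 on the MI arrays and 316, 85.2 and 238 on the MII arrays. It was low at MII beside 1 high GV array (log2 change -1.61, adjusted p = 0.201). Pms2 lost its call against MI without MI 1 or MI 3 (adjusted p up to 0.0667), and both of its calls when its probe sets were averaged.

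In nucleotide excision repair, which cuts out bulky lesions, none of 4 genes passed any comparison. Ercc1, a subunit of the nuclease that cuts 5′ of the lesion, was the brightest of the 4 and measured 134, 149 and 216 on the GV arrays, 82.0, 134 and 1695 on the MI arrays and 138, 319 and 302 on the MII arrays. MI 3 stood apart from the other 8 values. Ercc4, its partner, Xpa, which verifies damage, and Xpc, which finds it, lay between 15.1 and 419 on all arrays, with log2 changes in MII against GV of 0.13, -0.58 and -0.43 and SEs of 0.61, 0.78 and 0.71.

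Of the 4 genes of non-homologous end joining, which reseals double-strand breaks directly, 1 fell. Xrcc5, which encodes the Ku80 subunit of the break-binding Ku ring, measured 2142, 1209 and 1811 on the GV arrays, 1759, 1014 and 1052 on the MI arrays and 361, 419.9 and 355 on the MII arrays. Every MII array lay below every GV and MI array (MII against GV log2 change -2.10, SE 0.30, adjusted p = 0.00381; MII against MI log2 change -1.67, SE 0.30, adjusted p = 0.0149), a call lost against MI only without MII 3 (adjusted p = 0.0513) and with a pseudocount of 1. Its partner Xrcc6, which encodes Ku70, measured 436, 330.0 and 307 on the GV arrays, 339, 625 and 189 on the MI arrays and 223, 324 and 25.2 on the MII arrays. It did not pass (-1.30 in MII against GV, SE 0.77). Lig4 and Xrcc4, the ligase and its partner, had log2 changes of 0.43 and 0.65 without a call.

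Of 4 genes that sense breaks or repair them by recombination, Nbn alone passed, with a fall. Nbn, the subunit that brings the Mre11-Rad50 nuclease to breaks and to Atm, measured 121, 276 and 100.3 on the GV arrays, 469.8, 284 and 107 on the MI arrays and 16.1, 14.1 and 38.9 on the MII arrays. It was near background at MII (MII against GV log2 change -2.15, SE 0.56, adjusted p = 0.0394; MII against MI log2 change -2.80, SE 0.56, adjusted p = 0.0207). Its partner Rad50 measured 790.3, 534 and 519.9 on the GV arrays, 338, 522 and 324 on the MI arrays and 681, 299 and 686 on the MII arrays, with overlapping stages (log2 change -0.21 in MII against GV). Brca2, the loader of the recombinase and the brightest of this group, measured 1012, 1218 and 547 on the GV arrays, 1502, 1430.2 and 722 on the MI arrays and 2215, 1580.1 and 1829 on the MII arrays. Its MII arrays lay above all others but did not pass (MII against GV log2 change 1.07, SE 0.39, adjusted p = 0.121). Brca1, which acts upstream of it, measured 987, 1395 and 1492 on the GV arrays, 851, 786 and 660.5 on the MI arrays and 1116, 1457 and 1281 on the MII arrays. It was lowest at MI without overlap, with no call (MI against GV -0.73, adjusted p = 0.567; MII against MI 0.73, adjusted p = 0.104). At its other 2 bright probe sets MI was higher than GV (0.73 and 0.82). The call of Nbn against GV was kept without MI 1 or MI 3 only (adjusted p up to 0.113 without another array), and that against MI was lost without MI 1, MI 2, MII 1 or MII 2 (up to 0.0718).

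None of the 3 genes of the set in the Fanconi anaemia pathway, which repairs crosslinks between strands, passed. Fancd2, the protein that is ubiquitinated at a crosslink, measured 124, 26.9 and 206 on the GV arrays, 185, 171 and 75.3 on the MI arrays and 403, 400.0 and 547 on the MII arrays. It was higher on every MII array than on any other (MII against GV log2 change 2.07, SE 0.59, adjusted p = 0.0548). Fancm, a translocase that recognises stalled forks and the brightest of the 3, measured 504, 385 and 76.5 on the GV arrays, 408, 171 and 107 on the MI arrays and 429, 644 and 312 on the MII arrays (0.77). Fanca, of the core complex, had a log2 change of -1.33.

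Among the checkpoint kinases only Chek1 passed. Chek1, the effector kinase of Atr that restrains entry into M phase after damage, was bright at every stage, with 3071, 2073 and 2390.2 on the GV arrays, 3961, 3713 and 2976 on the MI arrays and 5008, 3870.4 and 4866 on the MII arrays. The MII arrays lay above all GV arrays and overlapped MI (MII against GV log2 change 0.87, SE 0.24, adjusted p = 0.0438; MII against MI 0.37, adjusted p = 0.449). The call was kept without GV 1 or MI 3 only (adjusted p up to 0.127 without another array), and was lost with a pseudocount of 1 and without the lowest 40% of genes. Atr, its upstream kinase, measured 769, 1649 and 469.8 on the GV arrays, 1455, 1311 and 299.9 on the MI arrays and 414, 303 and 193 on the MII arrays. It did not pass (log2 change -1.49, SE 0.68, adjusted p = 0.218). Atm, the kinase activated by double-strand breaks, lay between 13.1 and 165.4, with a log2 change of -1.11 in MII against GV.

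In MI against GV no gene passed, and the 56 genes had a median log2 change of 0.01, beside 0.01 over all genes. At an unadjusted p under 0.05 stood 7 of the 56 (12.5%), beside 7.13% of all genes and 1017 of the 9097 genes at or above the median. MI lay above GV without overlap in 7 and below it in 7 of the 56 genes, 12.5% each, where 6.44% and 6.07% of all genes and 7.85% and 7.51% of the 9097 genes at or above the median did so. Rpa3 had the smallest p of the set in this comparison, followed by Xrcc1 (log2 change -1.50, adjusted p = 0.426) and Rfc2 (-1.21, adjusted p = 0.546). In MII against GV the stages did not overlap in 13 genes that were higher and 24 that were lower at MII, 23.2% and 42.9% of the set, beside 14.3% and 17.6% of all genes and 21.4% and 28.7% of the 9097 brighter ones. For MII against MI these shares were 12.5% and 37.5%, beside 11.6% and 15.4% of all genes and 16.7% and 24.6% of the brighter ones. The comparisons share arrays and are not independent of each other.

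Set side by side, replication genes were called more often than repair genes, as a description with no test of the difference. In MII against GV 6 of the 27 replication genes rose and 10 fell, against 1 and 5 of the 29 repair and checkpoint genes. These are 22.2% and 37% of the replication genes and 3.45% and 17.2% of the repair genes, where 10.3% and 17.5% of the 9097 genes at or above the median rose and fell. The replication genes were also brighter, with a median mean intensity of 557 against 352. The median log2 change in MII against GV by pathway was lowest for the 7 genes of polymerases, primase, flap nuclease, ligase and topoisomerase (-2.71) and for RPA (-1.79), and highest for the Fanconi genes (0.77) and the helicase group (0.13). Nucleotide excision repair stood at -0.15, recombination and break sensing at -0.10, end joining at -0.44, checkpoint kinases at -0.65 and base excision repair at -0.85, the clamp and its loader at -1.64 and mismatch repair at -1.61.

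Further genes of the same pathways moved in both directions too. Of 108 such genes outside the 56, 12 rose and 17 fell in MII against GV, and 5 rose and 17 fell in MII against MI. As shares these were 11.1% and 15.7% in MII against GV, near the 10.3% and 17.5% of the 9097 genes at or above the median, and 4.63% and 15.7% in MII against MI, beside 4.61% and 13.3%. At the fork, Dna2, a nuclease that shares flap removal with Fen1, rose (1300.0 ± 173 in MII and 244 ± 83.3 in GV, mean ± SD of 3 arrays; log2 change 2.38, SE 0.33, adjusted p = 0.00332). Rnaseh2a, which removes primer RNA, fell (16.2 ± 3.42 in MII and 350.0 ± 234 in GV; log2 change -3.33, with MII in the range of background), as did Chtf18 and Dscc1 of an alternative clamp loader (-3.44 and -2.22). In base excision repair, Polb, the gap-filling polymerase, fell (198 ± 136 in MII and 1141 ± 355 in GV; log2 change -2.58), the glycosylase gene Nthl1 fell (-1.68) and the glycosylase gene Neil3 rose (1.27). In nucleotide excision repair, Cetn2, a partner of Xpc that is also a centriole protein, fell (173 ± 105 in MII and 2762 ± 248 in GV; log2 change -4.03). The helicase gene Ercc3 fell by 2.30 and Rad23b, another Xpc partner, by 1.12, while Gtf2h3 of the same factor as Ercc3 rose by 2.07 on the log2 scale. In break repair, Bard1, the partner of Brca1, rose (230.5 ± 87.9 in MII and 19.6 ± 23.7 in GV; log2 change 2.91, with GV near background). Palb2, which links Brca1 and Brca2 (1.30), and the break-marking protein gene Trp53bp1 (1.03) also rose, and Rnf8, a ubiquitin ligase at breaks, fell (-1.74). Rad18, the ligase that starts translesion synthesis, rose (1093 ± 261 in MII and 309 ± 69.0 in GV; log2 change 1.77, with 2.74 and -0.49 at its other bright probe sets), the bypass polymerase gene Polk rose (1.68) and its relative Poli fell (-1.36). Brip1, a helicase of crosslink repair, fell (-1.06), as did Cdc25a, a phosphatase that Chek1 inhibits (-1.46 at the brightest probe set, but 1.18 at another bright one, and not called with its probe sets averaged), while Hus1, of the checkpoint clamp, rose (0.97). None of 3 other mismatch repair genes passed this comparison, but 2 of them fell in MII against MI, the nuclease gene Exo1 (-2.49, adjusted p = 0.033) and Pms1 (-1.68, adjusted p = 0.0246). Another bright probe set of Exo1 went the other way in MII against MI (0.39).

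Of these 21 named genes, 10 kept their call in MII against GV without any 1 array (Rnaseh2a, Dna2, Dscc1, Polb, Nthl1, Cetn2, Bard1, Rnf8, Palb2 and Rad18). Brip1 lost its call in all 9 such fits (adjusted p up to 0.122). Among the MII arrays, leaving out MII 1, MII 2 or MII 3 each ended the calls of Chtf18, Gtf2h3, Trp53bp1 and Poli, MII 2 or MII 3 those of Neil3, Rad23b, Cdc25a and Polk, and MII 1 or MII 2 that of Hus1. Among the others, leaving out GV 1 ended those of Chtf18, Neil3, Ercc3, Rad23b, Cdc25a, Hus1 and Poli, GV 2 those of Chtf18, Neil3, Gtf2h3, Rad23b, Cdc25a, Polk and Poli, GV 3 those of Ercc3, Gtf2h3, Rad23b, Hus1, Polk and Poli, and MI 2 those of Chtf18, Cdc25a and Poli. The highest adjusted p of these 10 genes was 0.104, and all 21 kept their sign in each of the 17 alternatives.

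Other probe sets of the same genes gave a check within the arrays. Of the 56 genes 40 had more than 1 probe set. Among called genes that rose, 3 had further probe sets with a mean of 50.7 or more, and 8 of 8 such probe sets had a log2 change above 0 in MII against GV. At 1 of them, of Chek1, that change was only 0.02, with means of 1453 in GV and 1452 in MII. Among called genes that fell, 9 had 14 such probe sets and all 14 were lower. The sizes differed: Prim1 had a log2 change of -4.48 at the probe set used and -1.56 at another, while Rfc2 had -4.65 at the probe set used beside -4.80 and -3.69. In MII against MI the 2 probe sets of Prim1 gave -4.27 and -0.14. Among genes not called, 20 of 26 further probe sets had the sign of the brightest one. For Brca1 the brightest probe set gave 0.01 and the other 2 gave 1.40 and 2.02 in MII against GV, so that the size of its change depends on the probe set. Signs differed in 5 genes: Mcm10 gave 0.13 against -1.03 and -1.16, Rfc1 gave -2.18 against 0.73 and -1.45, Parp1 gave -2.95 against 0.07 and -1.82, Pold1 gave -0.40 against 0.34, and Ercc1 gave 0.51 against -0.32. By the naming of the platform, probe sets ending in x_at or s_at hold probes that can match other transcripts; among called genes those used for Mcm4, Mcm5, Mcm7, Rfc2, Fen1, Apex1 and Chek1 are of this kind. Probe sets of 1 gene share the array and the sample and are not replicates.

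**Figure D4:**
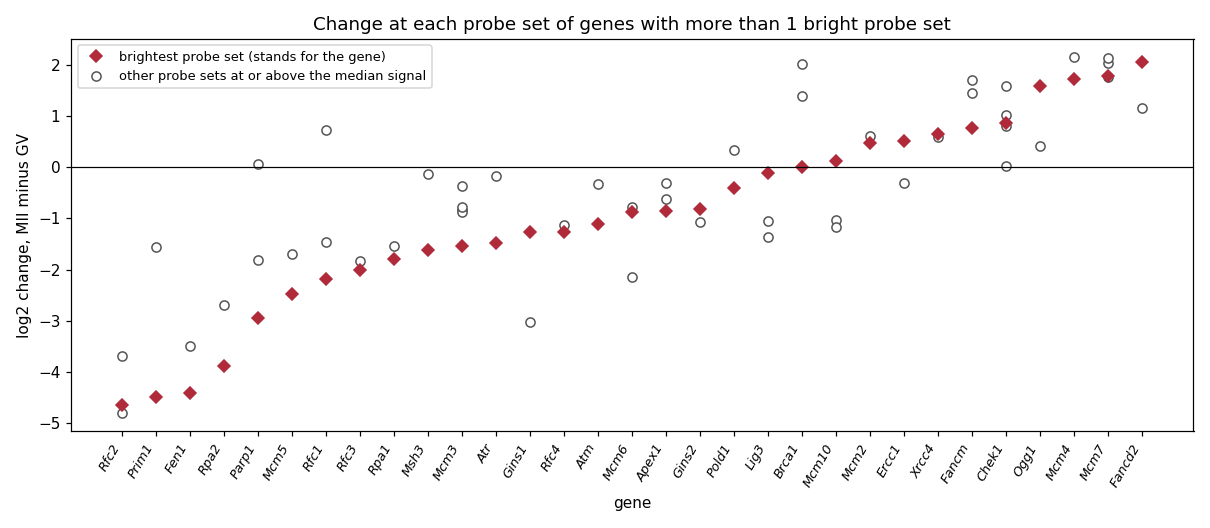
Log2 change in MII minus GV (y axis) at each probe set of the genes with more than 1 bright probe set, at a mean of 50.7 or more (x axis, ordered by the brightest probe set). Red diamonds are the brightest probe sets and open circles the others; the points of Rfc2, Fen1 and Mcm7 lie on 1 side of 0, and those of Mcm10, Rfc1, Parp1, Pold1 and Ercc1 do not all do so.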

How the data were processed

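The authors deposited 1 table of probe set intensity on a linear scale for 9 arrays, all mapped by their labels; 0 other columns of per-sample values were present. How probes were summarised, corrected for background and scaled is not given in the sources used here. Per the labels' protocols, polysome-bound mRNA was amplified with a whole-transcriptome kit and labelled with biotin. Of 45101 probe sets, 64 controls were left out, and of the rest 34945 had 1 symbol in the platform annotation, 932 several and 9160 none; only those with 1 were used. A RefSeq table of GRCm38.p6 held 18032 of the 18193 genes and changed 0 symbols. The probe set with the highest mean stood for a gene. Values were tested as log2(intensity + 16) in limma 3.58.1 (R 4.3.3; functions lmFit, then eBayes), 1 model of 3 stage means over all arrays with no filter, two-sided, adjusted over all genes. No 2 arrays held identical values. The number of arrays limits the precision, and the table holds no detection calls. Values in every array are given for genes that passed and for the brightest of each pathway; other pathway genes are named, up to 4 a list, by the largest change among those passing MII against GV. Genes and lists were chosen with earlier results of these data known, so lists were not tested. Tests were tried on simulated data first. Alternatives were other pseudocounts, a filter, 2 scalings, 2 probe set rules, only the stages compared, the replicate number as a block, and each array left out.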

Additional observations from a re-analysis of the deposited data

How the results depend on the processing

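Among the 38 calls of single genes of the set (23 genes in 1 or 2 comparisons), every one kept its sign in all 17 alternatives with 1 value a gene; 15 passed in all 17 and 20 without any 1 array. Without 1 array at a time, the genes of the set that rose and fell numbered 1 to 3 and 7 to 13 in MII against MI and 3 to 6 and 11 to 16 in MII against GV. Over all genes the same ranges were 180 to 438 and 645 to 1224 in MII against MI, 614 to 1142 and 1156 to 1743 in MII against GV, and 0 to 1 for rises in MI against GV, where only the fit without MI 1 called a gene. Fewer arrays leave a smaller test, and no other cause was tested. In MII against MI, 9 genes of the set fell with a pseudocount of 1 and 9 with only the 2 stages in the fit, and 4 rose after quantile normalization. In MII against GV, 2 rose with a pseudocount of 1, 4 with only the 2 stages and 13 probe sets over every probe set. The set's median over every probe set was -0.17 in MII against MI and -0.29 in MII against GV. Rises over all genes in MII against MI were 188 (pseudocount 1), 819 (quantile normalization), 773 (same 95th percentile) and 695 (every probe set), and in MII against GV 634 (pseudocount 1) and 1643 (every probe set), with the cause not tested. Beside a main 27.0% of calls that rose in MII against MI over all genes, quantile normalization gave 41.7% and the same 95th percentile 40.7%; within the set the main share was 12.5%, against 22.2% and 17.6%. With a pseudocount of 1, the calls lost in MII against GV were those of Mcm3, Mcm4, Mcm7, Pcna, Rfc3, Rpa1, Rpa3 and Chek1, and with a pseudocount of 64 those of Mcm7 and Nbn. With only the 2 stages compared in the fit, Mcm4, Mcm7, Pcna, Rfc3 and Chek1 lost their calls against GV, and Apex1, Mcm5, Pms2, Rpa2 and Xrcc1 theirs against MI. The F test called 12 to 18 genes of the set without 1 array, and the set's median lay between -0.88 and -0.45 in MII against MI and between -0.93 and -0.46 in MII against GV. Deviations from the stage means correlated at 0.004 to 0.206 between same-numbered arrays of different stages. Between arrays of different stages and different numbers they correlated at -0.232 to 0.106. The labels do not say what arrays of 1 number share, and this was not tested. With the replicate block 14 genes of the set fell and 3 rose in MII against MI, and 15 fell and 5 rose in MII against GV. The block ended the calls of Pcna, Chek1 and Nbn against GV and of Apex1 against MI. Signal near background limits what can be said of Chek2, Atm, Pold1 and Ercc4, of Prim1, Rfc2, Top2a, Nbn and Rnaseh2a at MII, and of Bard1 at GV.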
